A study of Mus musculus with 12 samples.

Results

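The clustered protocadherin genes of the mouse lie side by side on chromosome 18 in an alpha, a beta and a gamma cluster. Members were taken as every feature of the count files whose symbol begins with Pcdha, Pcdhb or Pcdhg and continues with a digit or a, b or c, without pseudogenes. This gave 24 rows of the 41388 in each file, namely 22 beta genes with a row each, 1 row for the alpha cluster and 1 row for the gamma cluster. All 24 passed the filter on low counts, and they held 233845 reads over the 12 libraries, of which 23.2% were in the alpha row, 29.3% in the beta genes and 47.6% in the gamma row.

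Clustered protocadherins are adhesion proteins of the neuronal surface. Each neuron switches on a small, partly random set of them, and proteins of the same isoform bind each other between membranes, which lets a neuron tell its own branches from those of other neurons. In the cortex they are known for self-avoidance of dendrites and axons, for dendrite growth, for synapse formation and for the survival of interneurons. In the alpha and gamma clusters, each variable first exon has its own promoter and encodes the extracellular part, the membrane span and a short inner stretch, and is spliced to 3 shared exons that encode a common cytoplasmic tail. The beta genes have no shared exons, so each beta protein is encoded by its own exon alone. Promoter choice is known to depend on the DNA-binding factor CTCF and cohesin, which loop promoters to distant enhancers, and on DNA methylation of the silent promoters.

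The annotation behind the files, on the build GRCm38, sets what can be read from them. The alpha row (ENSMUSG00000007440, listed under the symbol Pcdha11) spans positions 36930285 to 37187657 on the plus strand. It combines 9 variable first exons with the 3 shared exons, which make up 2860 of its 24670 exon bases. The gamma row (ENSMUSG00000023036, listed under Pcdhgc4) spans positions 37674335 to 37841873, also on the plus strand, and combines 9 variable first exons with 3 shared exons of 2119 bases in a total of 26094. The 22 beta genes lie between them, with Pcdhb1 starting at position 37264998 and Pcdhb22 ending at position 37521419. Of the 58 genes that the GENCODE M21 annotation lists for the family, 34 have no row of their own. Every beta gene has a row, but those of Pcdhb14 and Pcdhb22 hold 3438 and 3067 exon bases, where M21 lists exons of 8695 and 6609. Other rows fall short by less, among them Pcdhb6, Pcdhb8, Pcdhb11 and Pcdhb17. These hold 2453, 2340, 3615 and 3269 bases, where M21 lists 3729, 3334, 4419 and 4660. Levels per kb use the bases of the rows. The C-type isoforms Pcdhac1, Pcdhac2, Pcdhgc3, Pcdhgc4 and Pcdhgc5, which many neurons express together rather than by random choice, fall inside the merged rows and were not analysed singly here. The variable first exons of 5 alpha and 13 gamma genes lie outside the merged rows and were not analysed here. A value of the alpha or gamma row is therefore a sum over the held first exons and the shared exons. It cannot show a change in the choice among the held first exons, and a shift between held and other first exons would change it.

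The study sequenced RNA, after removal of ribosomal RNA, from cortical neurons cultured from Swiss Webster embryos at embryonic day 16. Lentivirus was added on day 5 in culture, and cells were harvested on day 10. The 3 groups had 4 libraries each. Htt-72Q neurons received exon 1 of huntingtin with 72 glutamines, an expanded repeat as in Huntington disease, Htt-25Q neurons received exon 1 with 25 glutamines, and the remaining group received the vector alone. The infection label of control vector 2 reads differently from the other 3 controls, and it was placed by its title. The sources used here do not give the promoter of the constructs, the share of infected cells or the number of embryos behind a library. Nor do they say that libraries of a group came from separate cultures, so p-values measure the spread between these libraries, which may be technical. A number in each description (22, 24, 26, 27 or 27_1, here called preparation) links libraries across groups, and its meaning is not stated. The comparisons ask what the long repeat does relative to the vector alone, what it does relative to the short repeat, and what the short repeat does.

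Library totals were 12439335 to 20040985 reads in Htt-72Q, 18097932 to 27471442 in Htt-25Q and 12668531 to 23357966 in control vector. Mouse Htt lay at 128 to 212 CPM in Htt-72Q neurons, 124 to 182 CPM in Htt-25Q neurons, and 89.1 to 235 CPM with control vector, and whether reads of the constructs align to it is not given. Levels here are CPM, read counts scaled to library size, with TMM factors. All 7 general neuronal markers exceeded 1 CPM. Their summed level was 5569 to 5890 CPM in Htt-72Q neurons, 6739 to 8023 CPM in Htt-25Q neurons, and 7347 to 8113 CPM with control vector, and 4 of the 7 were called lower in Htt-72Q against control vector. Excitatory neuron markers summed to 289 to 405 CPM in Htt-72Q neurons, 616 to 822 CPM in Htt-25Q neurons, and 613 to 731 CPM with control vector, and 5 of 6 were called lower. Inhibitory neuron markers summed to 103 to 162 CPM in Htt-72Q neurons, 164.0 to 294 CPM in Htt-25Q neurons, and 206 to 276 CPM with control vector, and 3 of 6 were called lower. Astrocyte markers summed to 2502 to 2913 CPM in Htt-72Q neurons, 2421 to 3083 CPM in Htt-25Q neurons, and 2693 to 3173 CPM with control vector, with 0 of 8 called. Against Htt-25Q, 3 general, 5 excitatory and 3 inhibitory markers were called lower. Neural progenitor markers summed to 277 to 353 CPM in Htt-72Q neurons, 233 to 302 CPM in Htt-25Q neurons, and 248 to 273 CPM with control vector, so Htt-72Q lay wholly above control vector. Of these 8 markers, 0 were called against control vector, and 1 was called higher and 1 lower against Htt-25Q. Microglial markers were near 0 except Aif1, with 1 of 8 at or above 1 CPM. The summed neuronal markers thus moved with the protocadherin values below, and the progenitor sum moved in the opposite direction but overlapped Htt-25Q. Not every neuronal marker followed its sum. In Htt-72Q neurons the Syp range lay within that of control vector, and Slc17a6 and Dlx2 reached above their control vector ranges. The part of the markers in the protocadherin values was not tested. In bulk RNA, fewer neurons and less RNA per neuron cannot be told apart. The libraries also differed across groups in Ctnnd1, a catenin gene: 6 libraries (Htt-72Q 1, 2 and 4, Htt-25Q 3, control vector 2 and 4) held 14.2 to 17.98 CPM and the other 6 held 24.8 to 32.4 CPM.

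Protocadherin RNA was lower in Htt-72Q neurons in the beta and gamma clusters, with differences of similar size. The 22 beta genes together gave 240, 257, 233 and 260 CPM in Htt-72Q 1 to 4, 312, 302, 357 and 336 CPM in Htt-25Q 1 to 4, and 343, 327, 304 and 345 CPM in control vector 1 to 4. Every Htt-72Q library lay under every library of the other groups, whose ranges overlapped each other. The mean was 247.7 ± 13.0 CPM in Htt-72Q neurons, 326.6 ± 24.6 CPM in Htt-25Q neurons, and 329.7 ± 19.0 CPM with control vector (SD, n = 4 each), a log2 difference of -0.41 against control vector and -0.40 against Htt-25Q.

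The gamma row stood at 396, 393, 338 and 438 CPM in Htt-72Q 1 to 4, at 530, 468, 516 and 601 CPM in Htt-25Q 1 to 4, and at 692, 459, 504 and 480 CPM in control vector 1 to 4. All Htt-72Q libraries were again below the others, although Htt-72Q 4 came close to control vector 2, and control vector 1 stood well above its group. Its fitted log2 fold change was -0.45 ± 0.14 against control vector (SE, edgeR adjusted p = 0.0327) and -0.43 ± 0.14 against Htt-25Q (edgeR adjusted p = 0.0388). Without control vector 1 the change against control vector was -0.30, with an edgeR adjusted p of 0.0807, so the call was lost without that library.

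The alpha row gave 198, 176, 179 and 230 CPM in Htt-72Q 1 to 4, 199, 204, 299 and 317 CPM in Htt-25Q 1 to 4, and 356, 220, 221 and 228 CPM in control vector 1 to 4. Its groups overlapped, since Htt-72Q 4 lay above 3 control libraries and Htt-25Q 1 and 2 lay among the Htt-72Q values. The log2 fold change was -0.39 ± 0.19 against control vector (edgeR adjusted p = 0.159) and -0.38 ± 0.19 against Htt-25Q (edgeR adjusted p = 0.176), neither of which passed the threshold of 0.05. Without control vector 1 the first became -0.19.

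**Figure D1:**
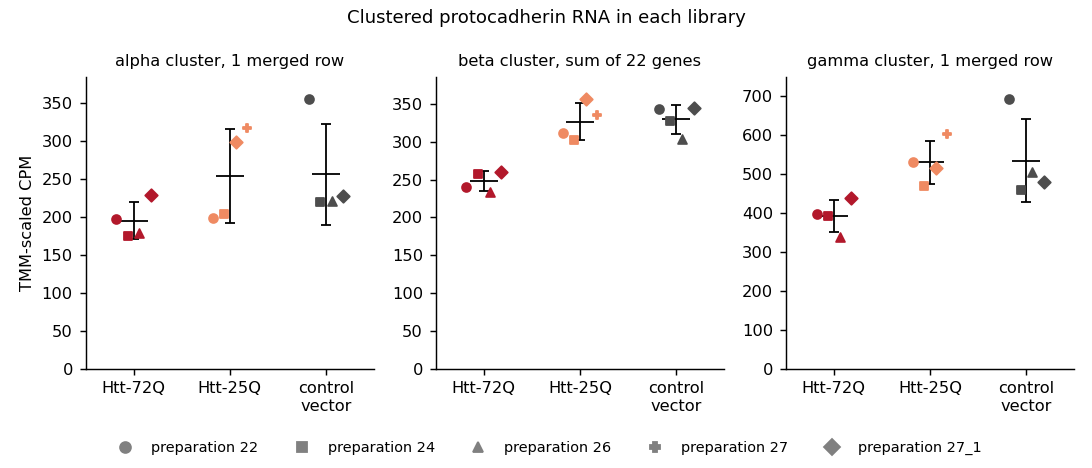
TMM-scaled CPM of the alpha row, of the 22 beta genes summed and of the gamma row in each of 12 libraries; marker shape gives the preparation, the bar the mean and the whiskers the SD of 4 libraries. Htt-72Q libraries lie below all others in the beta (233 to 260 CPM) and gamma (338 to 438 CPM) clusters, while the alpha groups overlap.

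Reads on the opposite strand cannot be told apart from those of the merged rows, because the strand setting of the counting is not given. The antisense gene Gm10545 shares 2790 bases with the alpha row and had 9 to 31 reads a library, against 2245 to 8096 for the alpha row. Gm26672, a noncoding gene that shares 1647 bases with the gamma row, had 111 to 573 reads, against 4250 to 15739 for the gamma row. Gm26672 also covers 2613 bases of the first exon of Pcdhga10 and 629 bases of that of Pcdhgb7, which the gamma row does not hold. Its values may therefore include reads of those exons, which was not tested. Gm26672 averaged 14.2 ± 3.70 CPM in Htt-72Q neurons, 17.9 ± 0.372 CPM in Htt-25Q neurons, and 19.3 ± 3.98 CPM with control vector (SD, n = 4 each), with a log2 fold change of -0.44 ± 0.20 against control vector (edgeR adjusted p = 0.129). No pair of the 24 member rows overlaps.

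In Htt-72Q against control vector, 10 of the 24 members were called lower (9 beta genes and the gamma row), 0 higher, and 14 did not pass. Over all 14707 genes tested, 13.7% were called lower and 9.44% higher, with the edgeR quasi-likelihood test and a Benjamini-Hochberg adjusted p under 0.05. The members' median log2 fold change was -0.46, against 0.03 over all genes tested, and 20 of 24 had a value below 0, where 47.6% of all genes did. In 13 members every Htt-72Q library lay below every control library, which held for 13.6% of all genes. In 1 member, Pcdhb1, every Htt-72Q library lay above every control library, which held for 10.1% of all genes. Within preparations, 14 of 24 members were lower in Htt-72Q than in its control in all 4 preparations that hold both, against 24.0% of all genes. With the preparation as a replicate block, 12 members were called lower, the 10 above and Pcdhb2 and Pcdhb8. With the side of the Ctnnd1 gap as a covariate, chosen after seeing the data, 13 were called lower, again with all 10 among them. Calls over all 14707 genes, in either direction, rose as well, from 3411 in the main fit to 4490 with the block and 3825 with the covariate.

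**Figure D2:**
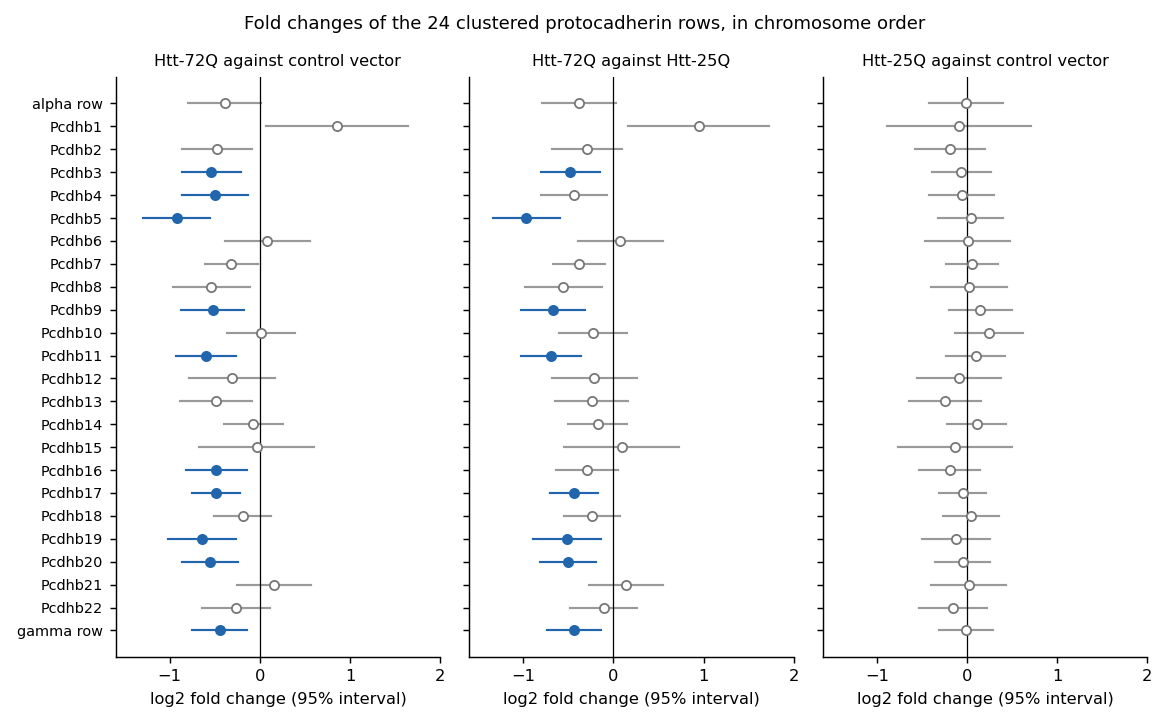
Fitted log2 fold change and 95% interval of each member in chromosome order, for Htt-72Q against control vector, Htt-72Q against Htt-25Q and Htt-25Q against control vector; filled blue points passed the adjusted p threshold of 0.05. Called members number 10, 8 and 0, every one of them to the left of 0, and Pcdhb1 is the member farthest to the right in both Htt-72Q panels.

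Pcdhb5 had the largest fall of any member. It stood at 8.59, 6.82, 5.81 and 9.18 CPM in Htt-72Q 1 to 4, at 16.3, 11.9, 15.6 and 15.9 CPM in Htt-25Q 1 to 4, and at 14.6, 15.0, 14.9 and 13.4 CPM in control vector 1 to 4. The Htt-72Q libraries lay below all 8 others, and Htt-25Q 2 was the lowest of those. The log2 fold change was -0.92 ± 0.17 against control vector (edgeR adjusted p = 0.00155), a fall of 47.3%, and -0.97 ± 0.17 against Htt-25Q (edgeR adjusted p = 0.00108). It is the only member called at an adjusted p under 0.01 against control vector.

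Pcdhb11, which shares 9.52% of its 50-base windows with other genes, most with its neighbour Pcdhb12, held 9.97, 8.39, 11.3 and 11.7 CPM in Htt-72Q 1 to 4, against 16.9, 15.7, 17.6 and 16.7 CPM in Htt-25Q 1 to 4 and 15.4, 16.02, 13.0 and 18.3 CPM in control vector 1 to 4. No Htt-72Q library reached the lowest of the other groups, which was control vector 3. The change was -0.60 ± 0.16 on the log2 scale against control vector (edgeR adjusted p = 0.0124) and -0.69 ± 0.16 against Htt-25Q (edgeR adjusted p = 0.00509). Pcdhb12 itself averaged 6.17 ± 1.19 CPM in Htt-72Q neurons, 7.16 ± 0.731 CPM in Htt-25Q neurons, and 7.67 ± 2.06 CPM with control vector (SD, n = 4 each), and was not called.

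Pcdhb9 is the beta gene with the highest level per length. Its values were 18.5, 23.7, 29.1 and 28.5 CPM in Htt-72Q 1 to 4, 35.6, 36.8, 45.0 and 41.8 CPM in Htt-25Q 1 to 4, and 29.1, 37.8, 34.7 and 42.2 CPM in control vector 1 to 4. Htt-72Q lay wholly below Htt-25Q, but Htt-72Q 3 and control vector 1 met at 29.1 CPM. The change was -0.53 ± 0.17 on the log2 scale against control vector (edgeR adjusted p = 0.0331) and -0.67 ± 0.17 against Htt-25Q (edgeR adjusted p = 0.00922).

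Pcdhb17, Pcdhb19 and Pcdhb20 are near neighbours toward the gamma end of the cluster, and all 3 were called lower against both groups. With the preparation as a replicate block none of the 3 was called against Htt-25Q (edgeR adjusted p = 0.0568, 0.0596 and 0.0686). With 27 and 27_1 joined as 1 preparation, all 3 were called (edgeR adjusted p = 0.0223, 0.0283 and 0.0264). Pcdhb17 was the steadiest of them, with 15.5, 14.7, 16.3 and 14.5 CPM in Htt-72Q 1 to 4, 19.2, 20.3, 22.1 and 21.1 CPM in Htt-25Q 1 to 4, and 21.1, 22.5, 19.5 and 22.3 CPM in control vector 1 to 4. The highest Htt-72Q library stayed below the lowest of the rest, and the log2 fold change was -0.49 ± 0.12 against control vector (edgeR adjusted p = 0.0107) and -0.44 ± 0.12 against Htt-25Q (edgeR adjusted p = 0.0195). Pcdhb19 is the most abundant beta gene in reads, and had 30.1, 27.3, 19.0 and 28.5 CPM in Htt-72Q 1 to 4, 36.3, 32.9, 43.7 and 37.6 CPM in Htt-25Q 1 to 4, and 51.8, 39.1, 31.3 and 41.6 CPM in control vector 1 to 4. The gap between Htt-72Q 1 and control vector 3 was narrow, and the change was -0.64 ± 0.18 against control vector (edgeR adjusted p = 0.0170) and -0.52 ± 0.18 against Htt-25Q (edgeR adjusted p = 0.0478). Pcdhb20 stood at 16.7, 18.6, 12.9 and 16.8 CPM in Htt-72Q 1 to 4, 20.6, 20.9, 26.2 and 24.7 CPM in Htt-25Q 1 to 4, and 23.0, 25.04, 22.7 and 24.9 CPM in control vector 1 to 4. Each of its Htt-72Q libraries lay below all 8 others, with a log2 fold change of -0.55 ± 0.15 against control vector (edgeR adjusted p = 0.0127) and -0.51 ± 0.15 against Htt-25Q (edgeR adjusted p = 0.0217).

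Pcdhb3 and Pcdhb4 adjoin each other near the alpha end. Pcdhb3 had 8.27, 10.0, 10.0 and 10.8 CPM in Htt-72Q 1 to 4, 11.4, 13.5, 15.0 and 14.7 CPM in Htt-25Q 1 to 4, and 15.3, 14.1, 15.1 and 12.4 CPM in control vector 1 to 4. Its Htt-72Q libraries lay below all others, at -0.54 ± 0.15 on the log2 scale against control vector (edgeR adjusted p = 0.0200) and -0.48 ± 0.15 against Htt-25Q (edgeR adjusted p = 0.0368). Pcdhb4 had 4.72, 6.001, 5.42 and 6.18 CPM in Htt-72Q 1 to 4, 7.40, 6.09, 8.34 and 8.53 CPM in Htt-25Q 1 to 4, and 8.27, 7.17, 7.61 and 8.59 CPM in control vector 1 to 4. Htt-25Q 2 fell among the Htt-72Q values, and the gene was called against control vector (-0.50 ± 0.17, edgeR adjusted p = 0.0495) but not against Htt-25Q (-0.44 ± 0.17, edgeR adjusted p = 0.0814).

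Pcdhb16 was likewise called against control vector alone. It held 14.6, 16.3, 9.95 and 14.1 CPM in Htt-72Q 1 to 4, 15.8, 16, 18.2 and 17.4 CPM in Htt-25Q 1 to 4, and 21.8, 19.1, 18 and 18.1 CPM in control vector 1 to 4. Htt-25Q lay between the other groups and overlapped both, with a log2 fold change in Htt-72Q of -0.48 ± 0.16 against control vector (edgeR adjusted p = 0.0408) and -0.29 ± 0.16 against Htt-25Q (edgeR adjusted p = 0.215). For Pcdhb4 and Pcdhb16 the difference between the comparisons is that of Htt-25Q against control vector, where neither was called.

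**Figure D3:**
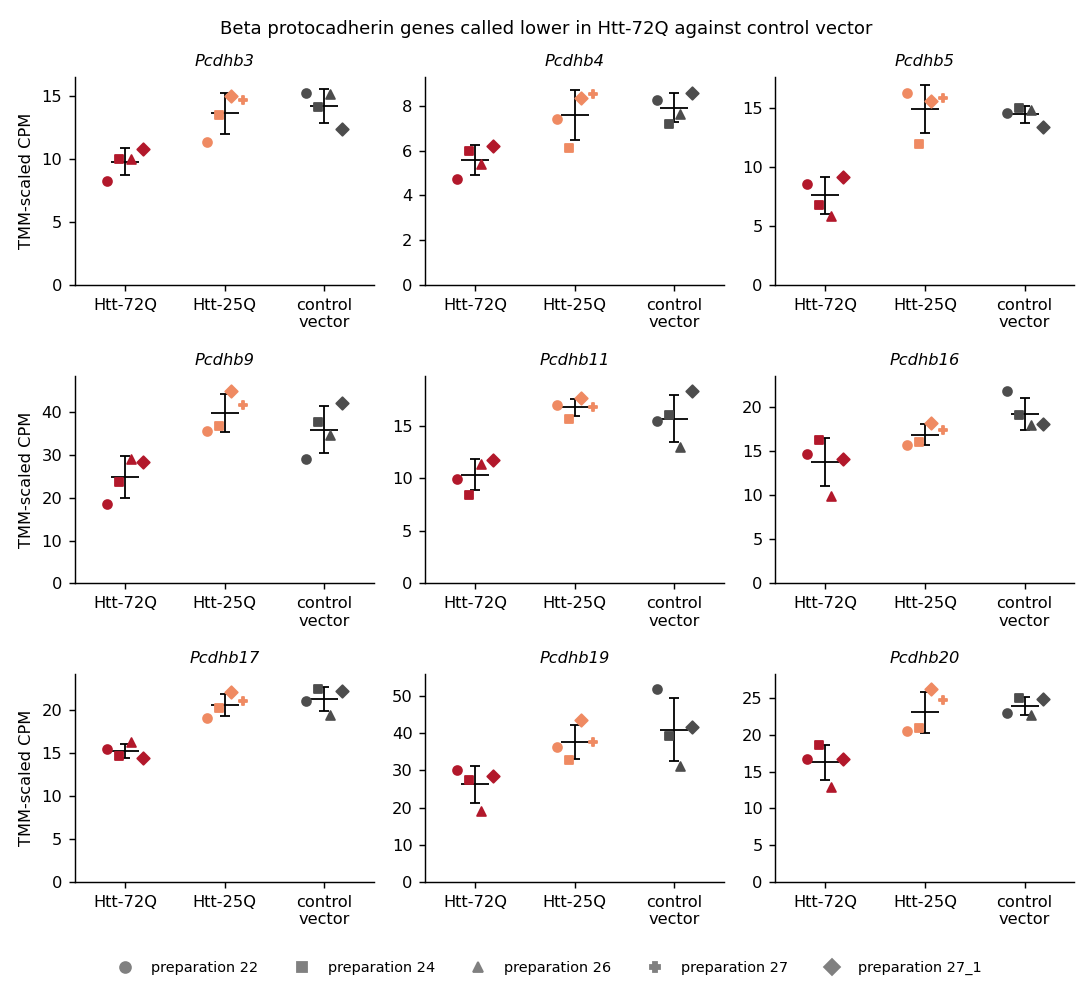
TMM-scaled CPM in each library of the 9 beta genes called lower in Htt-72Q against control vector; marker shape gives the preparation, the bar the mean and the whiskers the SD of 4 libraries. In Pcdhb5 the Htt-72Q libraries (5.81 to 9.18 CPM) lie farthest below the rest, while in Pcdhb4, Pcdhb9 and Pcdhb16 some ranges meet.

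The calls against control vector were not equally firm. With each of the 12 libraries left out in turn, Pcdhb3, Pcdhb5, Pcdhb11, Pcdhb17, Pcdhb19 and Pcdhb20 were called in 12 of 12 fits. The gamma row was called in 9 of 12, and lost the call without Htt-72Q 2, Htt-72Q 3 or control vector 1. Pcdhb9 was called in 8 of 12, and lost the call without Htt-72Q 1, Htt-72Q 2, control vector 2 or control vector 4. Pcdhb16 was called in 5 of 12, losing the call without Htt-72Q 3, Htt-72Q 4, Htt-25Q 1, Htt-25Q 2, control vector 1, control vector 2 or control vector 4. Pcdhb4 was called in 1 of 12, the fit without Htt-25Q 2. In a fit of all 12 libraries without the low-count filter, Pcdhb3, Pcdhb4 and Pcdhb16 lost the call.

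Of the 13 beta genes not called against control vector, Pcdhb2, Pcdhb7, Pcdhb8 and Pcdhb13 had Htt-72Q libraries wholly below the control libraries, with log2 fold changes of -0.48, -0.32, -0.54 and -0.49 and edgeR adjusted p of 0.0721, 0.109, 0.0674 and 0.0760. They are named for that range, chosen after their values were seen. DESeq2 called Pcdhb2, Pcdhb8 and Pcdhb13 lower as well. The other uncalled beta genes besides Pcdhb1 ran between -0.31 for Pcdhb12 and 0.16 for Pcdhb21, with groups that overlapped.

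Pcdhb1, the first beta gene after the alpha cluster, went the other way without passing the test, and is singled out after its values were seen. It had 2.10, 2.39, 1.43 and 2.32 CPM in Htt-72Q 1 to 4, 1.04, 1.91, 0.710 and 0.626 CPM in Htt-25Q 1 to 4, and 1.36, 0.897, 1.36 and 0.883 CPM in control vector 1 to 4. Each Htt-72Q library exceeded each control library, but Htt-25Q 2 lay among the Htt-72Q values, and the counts behind these levels were only 11 to 48 reads. The log2 fold change was 0.86 ± 0.37 against control vector (edgeR adjusted p = 0.110) and 0.95 ± 0.37 against Htt-25Q (edgeR adjusted p = 0.0792). limma voom called it higher against Htt-25Q, with an adjusted p of 0.0395, and edgeR did so without Htt-25Q 2 (adjusted p = 0.0162) or without Htt-72Q 3 (adjusted p = 0.0492).

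In Htt-72Q against Htt-25Q, 8 of the 24 members were called lower (7 beta genes and the gamma row) and 0 higher, where 13.4% of all 14707 genes were called lower and 9.07% higher. All 8 were also among the 10 called against control vector, and both comparisons use the same Htt-72Q libraries. The median log2 fold change was -0.34, against 0.03 over all genes. Ranges lay wholly below those of Htt-25Q in 9 members, which held for 15.1% of all genes. In the 3 preparations that hold both groups, 14 of 24 members were lower in Htt-72Q in every one, against 26.8% of all genes.

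This count depended on how preparation was taken into the model. With the preparation as a replicate block, 3 members were called lower, namely Pcdhb5 (-0.89, edgeR adjusted p = 0.00354), Pcdhb9 (-0.70, edgeR adjusted p = 0.00355) and Pcdhb11 (-0.68, edgeR adjusted p = 0.0120). Pcdhb3, Pcdhb17, Pcdhb19 and Pcdhb20 had adjusted p of 0.0568 to 0.0766 there, and the gamma row had -0.32 with an adjusted p of 0.112. In that fit Htt-72Q 3 and Htt-25Q 4 have no partner for this comparison. Over all 14707 genes it called 3120 in either direction, against 3308 in the main fit. The members thus lost a larger part of their calls than all genes did. With 27 and 27_1 joined as 1 preparation, 9 were called lower, the 8 above and Pcdhb7, and 4205 of all genes were called in either direction. With the side of the Ctnnd1 gap as a covariate, 7 were called, with Pcdhb3 and the gamma row lost and Pcdhb8 gained. Without Htt-25Q 3 and, separately, without Htt-25Q 4, the same 3 genes Pcdhb5, Pcdhb9 and Pcdhb11 were the ones called. Those 2 fits called 2622 of 14878 and 2293 of 15102 genes in either direction. Without Htt-72Q 2 there were 5, with Pcdhb8 gained and Pcdhb3, Pcdhb17, Pcdhb19 and the gamma row lost. Across the 12 fits that each left out 1 library, Pcdhb20 was called in 10, Pcdhb17 in 8, Pcdhb3 and the gamma row in 6 each and Pcdhb19 in 3.

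**Figure D4:**
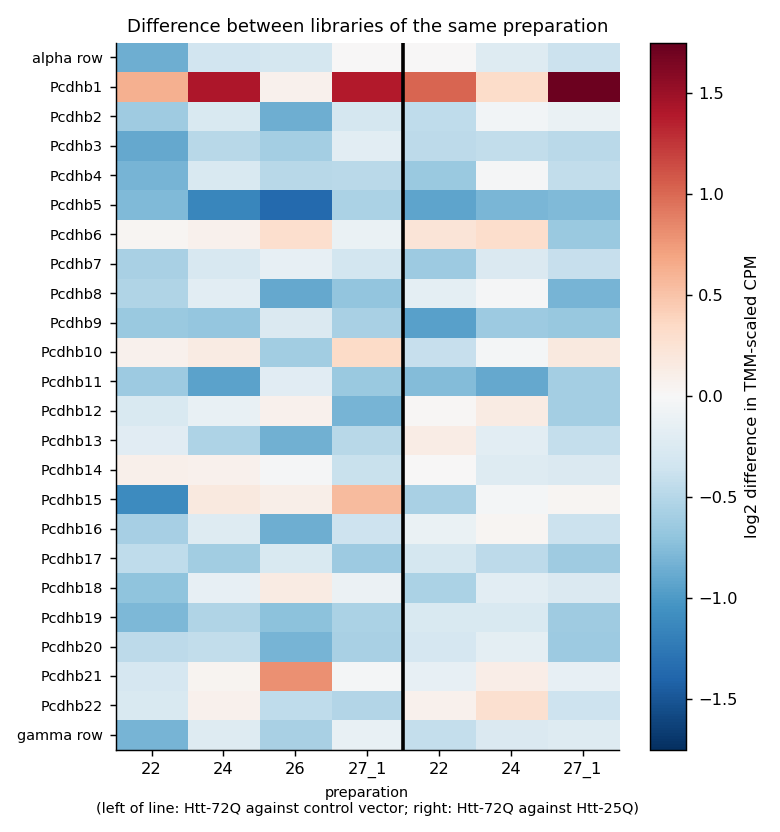
Log2 difference in TMM-scaled CPM between libraries of the same preparation for each member, with Htt-72Q against control vector in 4 preparations left of the line and Htt-72Q against Htt-25Q in 3 preparations right of it; blue is lower in Htt-72Q. Pcdhb5 is blue in all 7 columns, with values of -1.36 to -0.55, and Pcdhb1 is red in all 7.

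The cluster sums showed how much the preparations differed. For Htt-72Q against control vector, the log2 difference of the beta sum was -0.52, -0.35, -0.38 and -0.40 in preparations 22, 24, 26 and 27_1. The gamma row gave -0.81, -0.22, -0.57 and -0.13 in the same order, and the alpha row -0.85, -0.33, -0.31 and 0.01. The beta difference was thus similar in each preparation, while preparation 22, which holds control vector 1, gave the largest gamma and alpha differences. Against Htt-25Q the beta sum gave -0.38, -0.23 and -0.46 in preparations 22, 24 and 27_1. The gamma row gave -0.42, -0.25 and -0.23 there, with a mean of -0.30 against -0.43 between the group means. The alpha row gave 0.00, -0.22 and -0.38, and its fitted log2 fold change against Htt-25Q was -0.20 with the replicate block by preparation (edgeR adjusted p = 0.460), against -0.38 without it. On either side of the gap in Ctnnd1, the beta sum of Htt-72Q lay below that of control vector, with a log2 difference of -0.41 on the lower side (3 against 2 libraries) and of -0.47 on the higher side (1 against 2 libraries). The gamma row gave -0.20 on the lower and -0.80 on the higher side.

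In Htt-25Q against control vector, 0 of 24 members and 0 of 14707 genes (0%) were called with edgeR, and DESeq2 and limma voom also called 0 members. At an unadjusted p under 0.05 there were 0 members and 129 genes. The members' log2 fold changes ran from -0.25 to 0.24 with a median of -0.03. The gamma row was at -0.01, with a 95% interval of -0.31 to 0.29, and Pcdhb5 at 0.04, with an interval of -0.32 to 0.41. The 5 members with the smallest p were Pcdhb10 (0.24 ± 0.18), Pcdhb13 (-0.25 ± 0.19), Pcdhb16 (-0.19 ± 0.16), Pcdhb2 (-0.19 ± 0.18) and Pcdhb9 (0.15 ± 0.16), each with an edgeR adjusted p of 1.

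Their single libraries show how far the groups ran together. Pcdhb10 had 11.2, 12.7, 8.998 and 15.9 CPM in Htt-72Q 1 to 4, 14.8, 12.9, 14.1 and 15.4 CPM in Htt-25Q 1 to 4, and 10.7, 11.5, 13.7 and 12.6 CPM in control vector 1 to 4. Htt-72Q spread over both other groups, which overlapped. Pcdhb13 had 5.77, 4.43, 3.34 and 4.59 CPM in Htt-72Q 1 to 4, 5.28, 5.02, 6.13 and 5.06 CPM in Htt-25Q 1 to 4, and 6.64, 6.46, 6.0 and 6.42 CPM in control vector 1 to 4. Among the 8 other libraries, only Htt-25Q 3 reached the control range of that gene. Pcdhb2 had 8.002, 8.93, 5.97 and 10.5 CPM in Htt-72Q 1 to 4, 10.9, 9.26, 11.5 and 9.39 CPM in Htt-25Q 1 to 4, and 12.3, 10.7, 10.7 and 13.1 CPM in control vector 1 to 4, so Htt-25Q overlapped both other groups.

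Beta genes differed widely in level, and in each of the 3 groups Pcdhb9 was highest and Pcdhb1 lowest per kilobase of exon. Pcdhb9 stood at 10.99 ± 2.61 CPM per kb over the 12 libraries (SD). Pcdhb20, Pcdhb17, Pcdhb22 and Pcdhb7 followed at 6.21, 5.84, 5.47 and 5.11 CPM per kb, differences from one to the next within their SD of 0.689 to 1.21. Pcdhb13, Pcdhb15 and Pcdhb1 were lowest, at 1.47, 1.46 and 0.577 CPM per kb. Pcdhb1 is also the only beta gene with no 50-base window in common with another gene, whereas the highest share was 11.99%, in Pcdhb12. These windows were taken from M21 transcripts rather than from the counted exons. How reads that map to several beta genes were counted is not given in the sources used here, so single beta values remain uncertain to that extent. The merged alpha and gamma rows add up many first exons, so their values per length are not set beside those of beta genes.

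**Figure D5:**
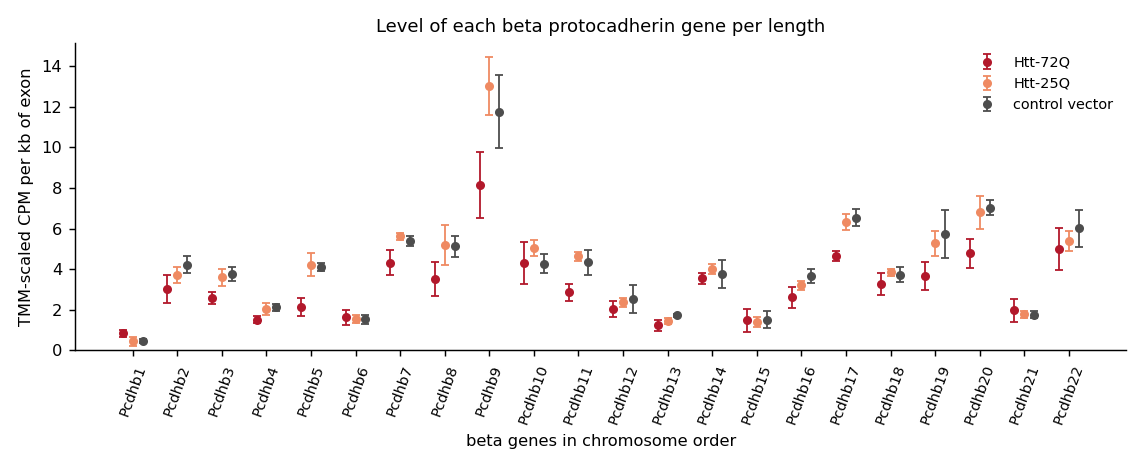
Mean level of each beta gene in TMM-scaled CPM per kb of exon, in chromosome order, for Htt-72Q, Htt-25Q and control vector, with whiskers for the SD of 4 libraries. Pcdhb9 stands highest in each group (8.16, 13.0 and 11.8 CPM per kb), and in Pcdhb5, Pcdhb11, Pcdhb17 and Pcdhb20 the Htt-72Q mean lies clear of the other 2.

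Across the 22 beta genes, those with a higher level per kb in control vector tended to have the more negative fold change in Htt-72Q (Spearman rho -0.56 against control vector and -0.64 against Htt-25Q, n = 22 genes). This is a description: the genes share the same libraries, and the control level also enters the first of these fold changes. With the mean CPM over all 12 libraries in its place, the values were -0.46 and -0.54. Position along the cluster gave 0.06 and 0.16, and the share of windows in common with other genes gave -0.04 and -0.16. The called beta genes were spread from Pcdhb3 to Pcdhb20 and did not sit at one end.

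Shares of the beta sum were more even in Htt-72Q. The effective number of beta genes (the exponential of the Shannon entropy of the shares, with 22 as its highest possible value) was 18.75, 18.95, 18.48 and 18.64 in Htt-72Q 1 to 4, 18.09, 18.19, 17.79 and 17.87 in Htt-25Q 1 to 4, and 17.97, 17.95, 18.46 and 17.78 in control vector 1 to 4. Htt-72Q lay above both other groups, by a narrow margin over control vector 3. Pcdhb5 made up 3.06 ± 0.57% of the beta sum in Htt-72Q, 4.57 ± 0.55% in Htt-25Q and 4.41 ± 0.43% in control vector (SD, n = 4 each). Pcdhb21 made up 3.74 ± 1.26% in Htt-72Q, 2.54 ± 0.08% in Htt-25Q and 2.49 ± 0.13% in control vector, although its level in CPM was not called. In these 2 genes alone the Htt-72Q shares did not overlap those of either other group, which is why they are named.

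The biological coefficient of variation of the fit had a median of 17.6% over the 24 members, with a range of 13.7% to 31.2%, against a median of 20.4% over all genes tested.

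Among 23 regulators of protocadherin promoter choice and silencing, all of them tested, 2 were called lower and 1 higher in Htt-72Q against control vector, and 20 did not pass; the median log2 fold change was -0.08. Over all genes tested, 13.7% were lower and 9.44% higher, so the count of regulators is near the background. Dnmt1, the maintenance DNA methyltransferase, averaged 90.1 ± 13.2 CPM in Htt-72Q neurons and 129 ± 28.7 CPM with control vector (SD, n = 4 each), with a log2 fold change of -0.51 ± 0.15 (edgeR adjusted p = 0.0243). Pds5b, a cohesin regulator, was at -0.51 ± 0.18 (edgeR adjusted p = 0.0485). Stag2, a cohesin subunit, rose, with 171 ± 11.8 CPM in Htt-72Q neurons and 137 ± 14.1 CPM with control vector, a log2 fold change of 0.32 ± 0.11 (edgeR adjusted p = 0.0389). Against Htt-25Q, 1 was lower (Smc1a, another cohesin subunit, at -0.41 ± 0.11, edgeR adjusted p = 0.0198), 1 was higher (Stag2, at 0.36 ± 0.11, edgeR adjusted p = 0.0237) and 21 did not pass. Ctcf, which encodes the looping factor itself, was at -0.13 ± 0.17 against control vector and was not called.

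Of 22 genes for partners of the proteins in the cytoplasm and membrane, 5 were called lower and 0 higher in each Htt-72Q comparison, with medians of -0.15 against control vector and -0.03 against Htt-25Q. The shares of all genes called lower were 13.7% and 13.4% in these comparisons. Ptk2b, which encodes the kinase Pyk2 that the protocadherin tails inhibit, averaged 19.1 ± 5.14 CPM in Htt-72Q neurons, 60.7 ± 15.1 CPM in Htt-25Q neurons, and 61.7 ± 7.65 CPM with control vector (SD, n = 4 each). Its log2 fold change was -1.69 ± 0.21 against control vector (edgeR adjusted p = 4.78e-05) and -1.66 ± 0.21 against Htt-25Q (edgeR adjusted p = 5.33e-05). Wasf1 and Abi2, subunits of the WAVE complex that drives actin branching, had log2 fold changes of -1.82 ± 0.32 and -0.62 ± 0.12 against control vector and of -1.41 ± 0.32 and -0.67 ± 0.12 against Htt-25Q. Wasf1 averaged 26.9 ± 4.48 CPM in Htt-72Q neurons, 71.8 ± 13.3 CPM in Htt-25Q neurons, and 94.9 ± 62.7 CPM with control vector (SD, n = 4 each). Its control libraries were thus uneven. Nlgn1, a postsynaptic adhesion gene, was at -0.72 ± 0.14 in both comparisons.

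Genes of the other cadherin lists were called lower too, several with a fitted change larger than that of Pcdhb5, although differences between genes were not tested. Over all genes tested, 13.7% were called lower against control vector and 13.4% against Htt-25Q. Of 12 non-clustered protocadherins tested, 6 were called lower and 0 higher in each Htt-72Q comparison, with medians of -0.59 against control vector and -0.57 against Htt-25Q. Pcdh11x averaged 66.3 ± 6.76 CPM in Htt-72Q neurons, 126 ± 13.7 CPM in Htt-25Q neurons, and 131 ± 24.7 CPM with control vector (SD, n = 4 each), a log2 fold change of -0.98 ± 0.14 against control vector (edgeR adjusted p = 0.000182). Pcdh19, a gene mutated in an epilepsy, had a log2 fold change of -1.47 ± 0.32 against control vector, Pcdh20 of -1.29 ± 0.25 and Pcdh7 of -0.93 ± 0.17. Against Htt-25Q the 4 with the smallest p were Pcdh11x at -0.93, Pcdh20 at -1.45, Pcdh7 at -0.89 and Pcdh9 at -0.81. Of 16 classical and type II cadherins tested, 11 were lower and 0 higher against control vector and 10 lower and 0 higher against Htt-25Q, with medians of -0.78 and -0.72. Cdh8, a type II cadherin of cortical neurons, was at -1.63 ± 0.16 on the log2 scale against control vector (edgeR adjusted p = 8.85e-06), Cdh13, which has a lipid anchor in place of a cytoplasmic tail, at -1.59 ± 0.20, Cdh20 at -1.28 ± 0.17 and Cdh11 at -0.83 ± 0.11. Against Htt-25Q they were at -1.69, -1.56, -1.35 and -0.68. Of 7 large atypical cadherins tested, Fat4 (-1.86 ± 0.29) and Fat3 (-0.90 ± 0.17) were lower against control vector and 5 did not pass, and the same genes were called against Htt-25Q, at -1.71 and -0.63. The median of these 7 was -0.32 against control vector but 0.0 against Htt-25Q, and -0.31 in Htt-25Q against control vector. Among 8 catenins, which link classical cadherins to actin, 5 were lower against control vector and 4 against Htt-25Q, led by Pkp4 at -0.84 ± 0.11 and -0.77 ± 0.11. Jup, which encodes plakoglobin, was at -1.24 and -0.81, Ctnna2, the neuronal alpha-catenin, at -0.44 and -0.35, and Ctnnd2, a delta-catenin, at -0.89 against control vector. Ctnna3 was at -1.48 against Htt-25Q, at a level of 0.653 CPM in Htt-72Q and 1.89 CPM in Htt-25Q. In Htt-25Q against control vector, 0 genes of any of these lists were called, as was so for all genes.

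The genes around the clusters were looked at next. Of 29 protein-coding genes that lie between the members or within 0.5 Mb of either end, 24 were tested, and 1 was lower, 2 were higher and 21 did not pass in Htt-72Q against control vector, with a median of 0.14. Over all genes tested, 13.7% were lower and 9.44% higher. Taf7, an intronless gene for a subunit of the general transcription factor TFIID that lies between the beta and gamma clusters, rose to 45.2 ± 3.09 CPM in Htt-72Q, against 32.2 ± 1.27 CPM in Htt-25Q neurons, and 30.8 ± 5.70 CPM with control vector (SD, n = 4 each). Its log2 fold change was 0.55 ± 0.14 against control vector (edgeR adjusted p = 0.0096) and 0.49 ± 0.14 against Htt-25Q (edgeR adjusted p = 0.0204). Dele1, a mitochondrial stress gene beyond the gamma cluster, rose by 0.70 ± 0.13 against control vector (edgeR adjusted p = 0.00170). Hdac3, a histone deacetylase gene close to the gamma end, had a log2 fold change of -0.36 ± 0.11 against control vector (edgeR adjusted p = 0.0271) and -0.34 ± 0.11 against Htt-25Q (edgeR adjusted p = 0.0348). Against Htt-25Q, 3 were higher, with Pfdn1, a prefoldin subunit, at 0.51 ± 0.17 in addition, 1 was lower and 20 did not pass, where 13.4% of all genes were lower and 9.07% higher.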

How the data were processed

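The deposited files hold counts of reads per gene and, beside them, the authors' CPM and RPKM. In 12 of 12 libraries the deposited CPM and RPKM values follow from the deposited counts, so the counts alone were used. STAR 2.0.4b, Subread, featureCounts 1.45 and the build GRCm38 are named per the submitters' processing notes, with no settings. Each library was run in 2 lanes and merged per the labels. The edgeR 4.0.16 quasi-likelihood test (R 4.3.3, TMM scaling, filterByExpr with a minimum count of 10, 1 fit of all 12 libraries with 9 residual degrees of freedom) was adjusted by the Benjamini-Hochberg method over 14707 genes, two-sided, and was tested on simulated data. Exons and positions of members and neighbours are those given with the deposited counts, and gene symbols came from a reference list of gene names. Gene types, the list of family genes and the transcripts behind the shared windows came from GENCODE M21. The members and all lists were chosen with earlier results of these data known. Named members are those called, both merged rows, the most abundant beta gene and, in Htt-25Q against control vector, the 5 with the smallest p; of each other list, up to 4 called genes with the smallest p are named. The rule also asked for the C-type isoforms, which have no rows of their own. Deviations from the group means were correlated between libraries over the genes tested. The r passed 0.1 in 10 of 10 pairs that share a preparation (median 0.28) and in 6 of 38 that do not (highest 0.46). Of pairs that share a title number, most of which also share a preparation, 10 of 12 passed (lowest -0.49). Libraries of a preparation thus tended to be alike. The main fit nevertheless used the groups only, and the block by preparation was an alternative. Alternatives were DESeq2 1.42.0, limma voom 3.58.1, other scalings and filters, fits of 2 groups, replicate blocks, a stricter threshold and leaving out each library.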

Additional observations from a re-analysis of the deposited data

Results flagged for a closer look

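In 4 of 72 combinations of a member and a group, 1 library lay far from the other 3, a pattern that chance gives in about 1 of 20 groups. The alpha row stood at 356.2 CPM in control vector 1, where the other control libraries held 220.2 to 227.9 CPM. Pcdhb18 stood at 21.51 CPM in the same library, against 17.69 to 18.1 CPM in the other controls. Pcdhb6 stood at 2.97 CPM in control vector 4, against 3.916 to 4.084 CPM. Pcdhb5 stood at 11.91 CPM in Htt-25Q 2, against 15.63 to 16.31 CPM in the other Htt-25Q libraries, and above the highest Htt-72Q library at 9.18 CPM.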

How the results depend on the processing

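The members called in Htt-72Q against control vector or Htt-25Q had a log2 fold change below 0 in that comparison under every alternative run. Of 10 members called in Htt-72Q against control vector, upper-quartile scaling, library totals alone and a fit of only the 2 groups each called 6, losing Pcdhb4, Pcdhb9, Pcdhb16 and the gamma row, and an adjusted p under 0.01 left 1. Over all 14707 genes tested, the main fit called 3411 in either direction, and an adjusted p under 0.01 left 1885. Upper-quartile scaling called 3513, library totals alone 3633, and the fit of 2 groups 2595 of 13973. Of 8 called against Htt-25Q, upper-quartile scaling and library totals alone called 5 each, losing Pcdhb3, Pcdhb19 and the gamma row, and an adjusted p under 0.01 left 3. Over all genes, the main fit called 3308 in either direction there, these 2 scalings 3363 and 3435, and the stricter threshold left 1763. The replicate block by preparation called 3, or 9 with 27 and 27_1 joined. The replicate block by title number called 10 and 9, and the block by preparation ended no call against control vector. Leaving out 1 library at a time gave 7 to 9 calls against control vector and 3 to 9 against Htt-25Q. DESeq2 called 13 and 10, and limma voom 9 and 10, the last with Pcdhb1 higher. Without the low-count filter 7 were called against control vector, losing Pcdhb3, Pcdhb4 and Pcdhb16. Against Htt-25Q that fit called 6, losing Pcdhb3 and Pcdhb17. It called 3266 and 3080 of 27365 genes in either direction. With the log2 difference of the beta sum against control vector, only library totals alone moved the value beyond the spread between libraries, to -0.33. The other 107 values of cluster sums stayed within that spread. For the alpha row this says little, since its libraries spread widely (log2 SD 0.18 in Htt-72Q and 0.34 with control vector). Its difference of -0.37 against control vector became -0.2 without control vector 1 and still counted as within the spread. For Htt-25Q against control vector, 0 members were called under each alternative. Levels of 1 to 2 CPM, as in Pcdhb1, rest on few reads, and merged rows limit the alpha and gamma clusters to their sums. Some uncalled values near 0 changed sign, with none called. Pcdhb10 in Htt-72Q against control vector, at 0.02, gave -0.01 without the filter, 0.00 with each replicate block, -0.03 with the side of the gap in Ctnnd1 as a covariate, and -0.13, -0.04, -0.03, -0.02 and 0.00 without Htt-72Q 4, control vector 1, control vector 2, Htt-72Q 2 and Htt-25Q 4. In that comparison Pcdhb6 and Pcdhb21 turned to -0.053 and -0.065 without Htt-72Q 3. In Htt-25Q against control vector, the alpha row, at -0.01, gave 0.01 with upper-quartile scaling and 0.09, 0.08 and 0.19 without Htt-25Q 1, Htt-25Q 2 and control vector 1. The gamma row, at -0.01, gave 0.00 with upper-quartile scaling and 0.04 and 0.14 without Htt-25Q 2 and control vector 1. Pcdhb5, at 0.04, gave -0.05 with the replicate block by preparation, -0.04 with 27 and 27_1 joined and 0.00 without Htt-25Q 1. Pcdhb3 gave 0.02 and Pcdhb20 0.00 without Htt-25Q 1, Pcdhb4 gave 0.03 without Htt-25Q 2, Pcdhb11 0.00 without control vector 3, Pcdhb19 0.01 without control vector 1 and Pcdhb20 0.01 with the Ctnnd1 covariate. The cause was not tested.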
